A study of Mus musculus with 2 samples.

Results

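The miRNAs described here are those that Toll-like receptor ligands or NF-kappa B are known to induce: mmu-miR-21a, mmu-miR-146a, mmu-miR-146b, mmu-miR-132, mmu-miR-212, mmu-miR-147 and mmu-miR-187. They were chosen by name, and every array probe that carried one of these names, with or without a 5p or 3p arm, was a member. The 7 names gave 14 probes, both arms of each, among 1900 mouse miRNA probes. The samples were total RNA of mononuclear cells from the colonic lamina propria, the connective tissue under the gut epithelium, of male Balb/c mice. One group was specific pathogen-free (SPF) mice, which carry gut bacteria free of listed pathogens. The group it was set against was germ-free mice, which carry no bacteria. Each group had 1 array, so no value has a replicate error, and no test between the groups was possible. The labels do not say how many mice gave cells to each sample, nor how old they were.

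Toll-like receptors sense bacterial products such as lipopolysaccharide and signal through the adaptor Myd88, the Irak kinases and Traf6 to NF-kappa B, which switches on inflammatory genes and a small set of miRNAs. Most of these miRNAs are known as brakes that repress parts of the same pathway after it has been switched on. In the colon lamina propria, macrophages, dendritic cells and lymphocytes lie next to bacterial products that cross the epithelium. The comparison of SPF with germ-free cells asks how miRNA levels differ with and without these bacteria.

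Mature sequences from RefSeq (GRCm38.p6) were used for 11 of the 14 probes. The others were miR-147-3p and both arms of miR-187. The entries searched did not cover every chromosome, so a sequence missing here may still be in RefSeq. The sequences below are those of the members the results turn on and of the paralogs miR-21b and miR-21c, with the seed, bases 2 to 8 from the 5′ end, in capitals. A miRNA finds its targets mainly through the seed.
mmu-miR-21a-5p: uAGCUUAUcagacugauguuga
mmu-miR-21b: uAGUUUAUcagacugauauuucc
mmu-miR-21c: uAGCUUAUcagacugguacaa
mmu-miR-21a-3p: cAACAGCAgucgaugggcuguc
mmu-miR-146a-5p: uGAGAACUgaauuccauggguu
mmu-miR-146b-5p: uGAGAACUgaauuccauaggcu
mmu-miR-132-3p: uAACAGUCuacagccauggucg
mmu-miR-212-3p: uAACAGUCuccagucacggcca
A seed is shared by 3 pairs, miR-21a-5p with miR-21c, miR-146a-5p with miR-146b-5p, and miR-132-3p with miR-212-3p. No other array probe with a sequence among those used had the seed of one of these 11, and probes without one were not searched. From miR-146a-5p to miR-146b-5p the changes, counted from the 5′ end, are G18A and U21C, so the first 17 bases are identical. From miR-132-3p to miR-212-3p they are A10C, C14U, U17C, U20C and G22A. miR-21b differs from miR-21a-5p by C4U inside the seed and by G18A, G21U and A22C, and miR-21c by A16G, G18A, U19C, U20A and G21A.

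Mir21a lies at chr11:86584067-86584158 on the minus strand (GRCm38), inside an exon of Vmp1 that GENCODE M21 annotates as untranslated in at least 1 transcript. Mir147 lies at chr2:122640803-122640881 on the plus strand, likewise in an exonic UTR, of the protein-coding gene AA467197. Mir146, the gene of miR-146a, lies at chr11:43374397-43374461 on the minus strand and overlaps no other annotated gene. Mir146b lies at chr19:46342762-46342870 on the plus strand, inside the gene Mfsd13a but in none of its exons. Mir212 at chr11:75173388-75173478 and Mir132 at chr11:75173682-75173747, both on the plus strand and inside the non-coding gene 1700016P03Rik, are neighbours, with Mir132 starting 204 bases after the end of Mir212. They are known to come from 1 primary transcript.

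Levels are spot intensities at 635 nm minus the mean of the blank spots, with the SPF array multiplied by 0.849 so that the median miRNA above the floor on both arrays was equal, and are called net intensities below. A floor was set 2 SD above the blank mean, at a spot intensity of 169.0 on the SPF array and 137.6 on the germ-free array. A stricter level, the mean + 2 SD of 174 spots without a probe, stood at 202 on the SPF array and 166 on the germ-free array. The floor was permissive, since 71.8% of the spots without a probe and 56.25% of the negative controls passed it on the SPF array, and 66.7% and 65.6% on the germ-free array. Of 14 members, 11 were above the floor on both arrays and 8 above the stricter level on both. The 3 others, miR-146a-3p, miR-146b-3p and miR-147-5p, were under the floor on both arrays, so no ratio is given for them. Each probe had 1 spot, and no member spot carried a bad-spot mark. An intensity also depends on how well a probe binds, so intensities of different probes are not amounts that can be set against each other. The sums over probes given below weigh the brightest probes most. The ± beside a log2 value is a technical SD from the spread of repeated bright control spots (0.0908 on the log2 scale) and of blank spots, and it holds no spread between animals or between arrays. After scaling, 5 bright control probes that name no miRNA stood at log2 0.07 to 0.22 SPF over germ-free.

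**Figure D1:**
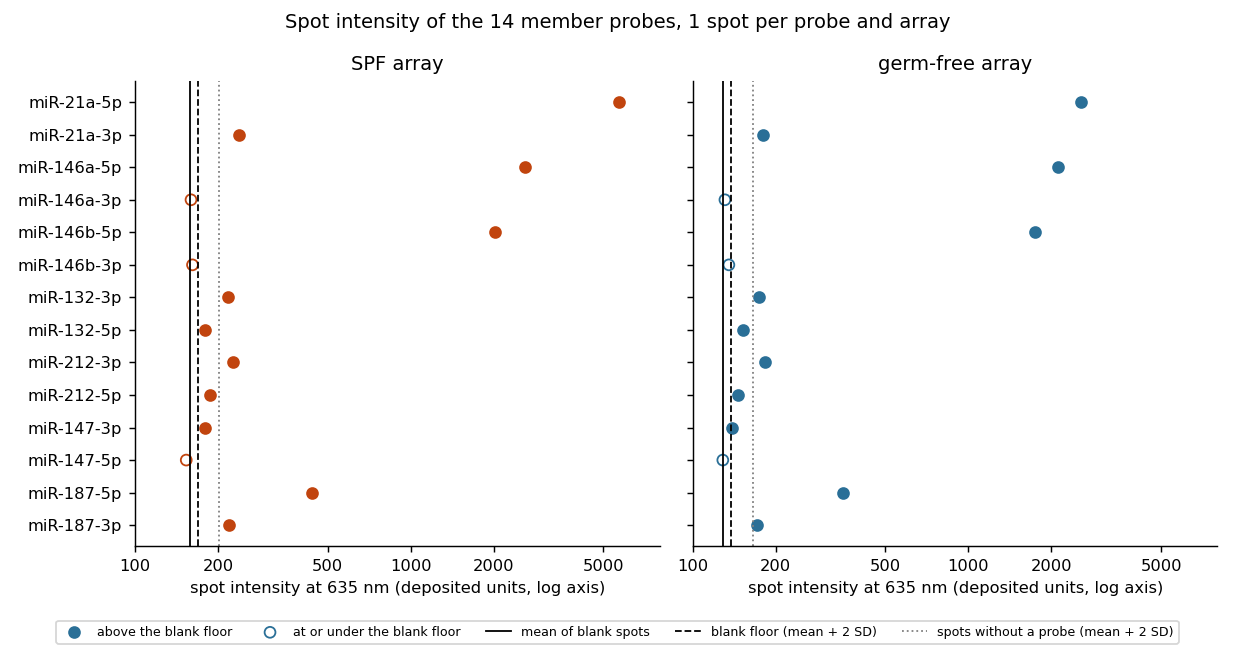
Deposited spot intensity at 635 nm (log axis) of the 14 member probes on the SPF array (left) and the germ-free array (right), with the blank mean, the blank floor and the level of spots without a probe as lines. miR-21a-5p, miR-146a-5p and miR-146b-5p lie above 500 on both arrays, miR-187-5p between 200 and 500, and the other members close to the background lines.

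The 5p arm of mmu-miR-21a had the largest log2 difference of the 11 members measured on both arrays, and it was brighter with SPF cells. miR-21a is induced through NF-kappa B, AP-1 and Stat3 and represses Pdcd4, and it is abundant in leukocytes and in many epithelia. Its net intensity was 4721 on the SPF array, against 2426 on the germ-free array, a 1.95-fold higher level (log2 0.96 ± 0.13). Before background and scaling the spot read 5718 on the SPF array and 2555 on the germ-free array. By spot intensity it ranked 46 of 1900 probes on the SPF array and 100 on the germ-free array. It held 0.470% of the net miRNA signal of the SPF array and 0.237% of that of the germ-free array. Its log2 value ranked 26 among the 1471 miRNAs that passed the floor on each array and 13 among the 735 of these brighter than their median. The value lay just under 2-fold, and changes of method moved it to either side. It passed that line without scaling (1.20), with quantile scaling (1.06) and with the stricter floor (1.0004). It was lower with scaling on the spike controls (0.87), without background subtraction (0.89) and with correction for block medians (0.82). With the local background of each spot subtracted it was 2.88. Around this spot the local background was 32.4% of the spot intensity on the SPF array and 85.2% on the germ-free array.

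The 3p arm of mmu-miR-21a, the usually degraded partner strand, gave a dim spot on both arrays. Its net intensity was 68.0 on the SPF array, against 51.8 on the germ-free array, a log2 value of 0.39 ± 0.20. The 5p value exceeded the 3p value by 0.57 on the log2 scale, with a technical SD of 0.24. The 2 arms thus had the same sign. The probes of the paralogs miR-21b and miR-21c were under the floor on both arrays, with spot intensities of 158 and 168 on the SPF array and 122 and 133 on the germ-free array. The signal at miR-21a-5p was therefore not matched at the probe for miR-21c, although the first 15 bases of the 2 miRNAs are identical.

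The 5p arms of mmu-miR-146a and mmu-miR-146b had nearly equal levels on the 2 arrays. These paralogs are induced through NF-kappa B, repress Irak1 and Traf6, and so feed back on the pathway. miR-146a-5p had a net intensity of 2072 on the SPF array and 1977 on the germ-free array, a log2 value of 0.07 ± 0.13, or 1.05-fold. miR-146b-5p had 1583 on the SPF array and 1608 on the germ-free array, a log2 value of -0.02 ± 0.13. Both differences were smaller than the technical SD, and the sign of each depended on scaling, with -0.02 to 0.30 for miR-146a-5p and -0.11 to 0.21 for miR-146b-5p over the alternatives tried. They ranked 112 and 127 of 1900 by spot intensity on the SPF array and 115 and 135 on the germ-free array, and so were among the brighter miRNAs in both. The ratio of miR-146a-5p to miR-146b-5p was 1.31 on the SPF array and 1.23 on the germ-free array, a difference of 0.09 on the log2 scale with a technical SD of 0.18. Since 17 leading bases are identical, RNA of one may bind the probe of the other, which was not tested. The local background of the miR-146a-5p spot was 50.8% of its spot intensity on the SPF array and 138% on the germ-free array, so it has no value under local background subtraction. Local background exceeded the spot itself at 5 of the 313 miRNA spots above an intensity of 500 on the SPF array and at 29 on the germ-free array.

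**Figure D2:**
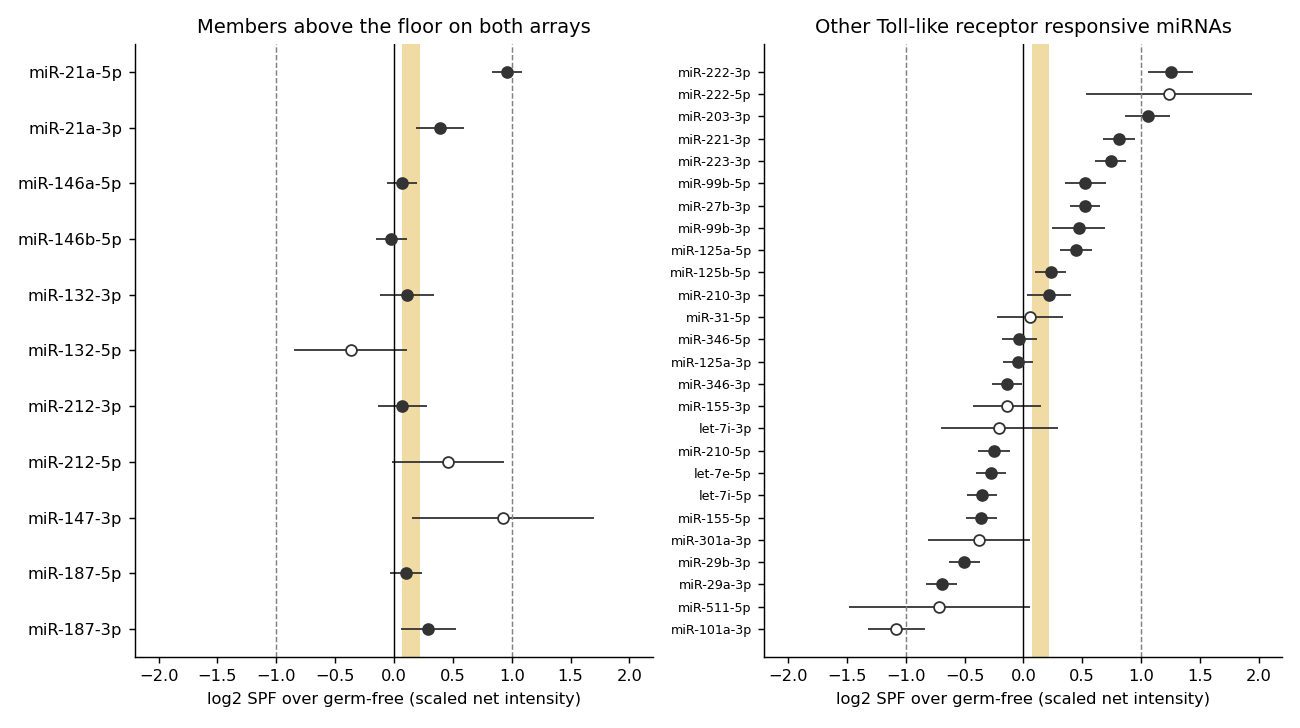
Log2 SPF over germ-free of the 11 members above the floor on both arrays (left) and of 26 other Toll-like receptor responsive miRNAs (right), with technical SD as bars; open points were under the level of spots without a probe on at least 1 array. The band marks the 5 bright control probes (0.07 to 0.22) and the dashed lines 2-fold; miR-21a-5p at 0.96 lies beyond the band and miR-146a-5p and miR-146b-5p lie at or next to 0.

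The linked pair mmu-miR-132 and mmu-miR-212, which share a primary transcript and, in their 3p arms, a seed, was dim on both arrays. Their transcription is known to depend on Creb, and miR-132 represses the coactivator Ep300 and acetylcholinesterase. miR-132-3p had a net intensity of 49.4 on the SPF array and 45.8 on the germ-free array, a log2 value of 0.11 ± 0.23. miR-212-3p had 57.5 on the SPF array and 54.7 on the germ-free array, a log2 value of 0.07 ± 0.21. The 2 guide arms differed by 0.04 in log2 value, with a technical SD of 0.31, and neither differed between arrays by more than its technical SD. The sign of miR-212-3p was negative with scaling on the spike controls (-0.01), with correction for block medians (-0.02) and with local background subtraction (-0.14). With local background subtraction miR-132-3p was at 1.38.

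The 5p arms of the pair lay between the floor and the level of spots without a probe on both arrays. miR-132-5p had a net intensity of 17.8 on the SPF array and 23.0 on the germ-free array, a log2 value of -0.37 ± 0.48. miR-212-5p had 24.3 on the SPF array and 17.7 on the germ-free array, a log2 value of 0.46 ± 0.47. The 2 arms went opposite ways, each by no more than its technical SD, so a difference was not detectable at this signal. miR-132-5p was at 0.11 with local background subtraction.

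mmu-miR-147 is induced in mouse macrophages by ligands of several Toll-like receptors and dampens their cytokine response. miR-147-3p had a net intensity of 18.4 on the SPF array and 9.65 on the germ-free array, a log2 value of 0.93 ± 0.77. On the germ-free array it was just above the floor, and on both arrays it was under the level of spots without a probe. It was -0.07 with local background subtraction and 0.11 with none subtracted, and it has no value under the stricter or the doubled floor. Without scaling it was 1.16 and with quantile scaling 1.0006. miR-147-5p was under the blank mean on both arrays.

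mmu-miR-187 is induced by interleukin-10 together with Toll-like receptor ligands in human monocytes, where it represses tumour necrosis factor. miR-187-5p had a net intensity of 237 on the SPF array and 221 on the germ-free array, a log2 value of 0.10 ± 0.13. miR-187-3p had 52.2 on the SPF array and 42.6 on the germ-free array, a log2 value of 0.29 ± 0.24. The 5p value was within its technical SD and turned negative with correction for block medians (-0.22) and with local background subtraction (-0.33). The 3p value was 0.75 with local background subtraction.

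Of the 11 members above the floor on both arrays, none was at least 2-fold higher or lower on the SPF array, against 2.99% of the 1471 shared miRNAs. At 1.5-fold, miR-21a-5p and miR-147-3p were higher, 2 of 11 members against 4.62% of shared miRNAs, and no member was lower, against 7.61%. The median log2 value of the 11 members was 0.11, with quartiles of 0.07 and 0.42, and over all shared miRNAs it was -0.06, with quartiles of -0.27 and 0.18. Log2 values above 0 were found for 9 of 11 members and for 42.4% of all shared miRNAs, and 7 of these 9 members had values under 0.5. Among these, miR-146a-5p, miR-212-3p, miR-187-5p and miR-132-3p, at 0.07 to 0.11, were within their technical SD. They also did not exceed the range of the 5 bright control probes (0.07 to 0.22). With scaling on the spike controls miR-146a-5p and miR-212-3p were at -0.02 and -0.01. Without scaling, the median of all shared miRNAs moved up to 0.18 and that of the members to 0.35. Without miR-21a-5p, the net intensities of the other 13 members summed to 4180 on the SPF array and 4060 on the germ-free array. With it, the sums were 8901 on the SPF array and 6487 on the germ-free array, so most of the difference between the sums was this 1 probe.

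**Figure D3:**
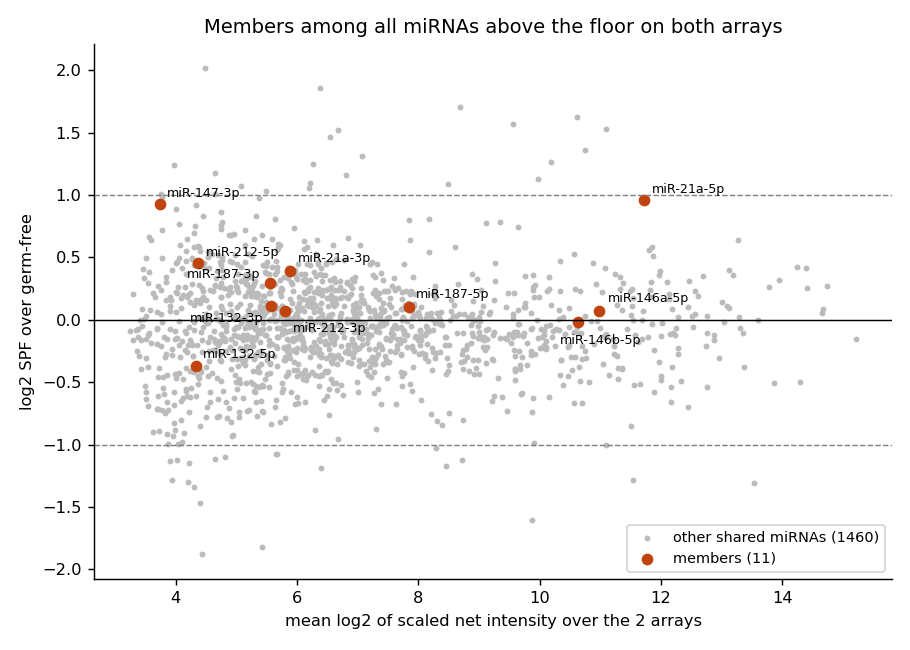
Log2 SPF over germ-free against the mean log2 of the scaled net intensity, for members (large points) and the remaining shared miRNAs (small points); dashed lines mark 2-fold. miR-21a-5p stands at 0.96 among bright miRNAs whose values mostly lie nearer 0, while miR-147-3p at 0.93 lies at the dim end, where values spread widely.

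Another 20 miRNAs that respond to Toll-like receptor or NF-kappa B signalling, in either direction, gave 38 probes, of which 26 were above the floor on both arrays. Their median log2 value was -0.04 (0.19 without scaling), with 12 higher and 14 lower on the SPF array, with 3 past 2-fold upwards and 1 past 2-fold downwards. The 3 highest log2 values were 1.25 ± 0.19 for miR-222-3p, 1.24 ± 0.70 for miR-222-5p and 1.05 ± 0.19 for miR-203-3p. Of these, miR-222-5p was under the level of spots without a probe on both arrays. With local background subtraction miR-222-3p was at -0.14, miR-222-5p at 0.59 and miR-203-3p at 0.53, and without background subtraction they were at 0.47, 0.15 and 0.38. miR-222 represses the kinase receptor Kit and the cell cycle inhibitor Cdkn1b, and miR-203 represses Trp63 and is also an epithelial marker. The 3 lowest were miR-101a-3p at -1.08 ± 0.24, miR-511-5p at -0.72 ± 0.77 and miR-29a-3p at -0.70 ± 0.13. miR-101a-3p was under the level of spots without a probe on the SPF array and miR-511-5p on both. With local background subtraction miR-101a-3p was at -0.30, miR-511-5p at -0.56 and miR-29a-3p at -1.72, and without background subtraction miR-101a-3p and miR-511-5p were at -0.30 and -0.05. miR-101a represses Ezh2, and miR-29a represses Ifng and Tbx21.

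miR-155, which is strongly induced by Toll-like receptors in macrophages and represses Socs1 and Inpp5d, lay on the other side of 0 from miR-21a-5p. miR-155-5p had a net intensity of 321 on the SPF array and 412 on the germ-free array, a log2 value of -0.36 ± 0.13 (-0.12 without scaling, and no value with local background subtraction). miR-155-3p had a log2 value of -0.14 ± 0.29 (0.10 without scaling and 0.59 with local background subtraction). On these arrays miR-21a-5p, miR-146a-5p and miR-155-5p, all induced by NF-kappa B, thus stood at 0.96, 0.07 and -0.36.

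Markers of cell types differed between the arrays beside the difference in miR-21a-5p. Of 21 probes of epithelial miRNAs (the miR-200 family, miR-192, miR-194, miR-215, miR-203, miR-375 and miR-802), 18 were above the floor on both arrays, 15 were higher on the SPF array and 10 at least 2-fold. Their net intensities summed to 15217 on the SPF array and 6038 on the germ-free array, 2.52-fold, with a median log2 value of 1.07, and miR-429-5p, miR-203-5p and miR-802-5p were under the floor on both. Of 12 lymphocyte probes (miR-150, miR-342, the miR-181 family and miR-155, whose 2 arms are those described above), 11 were above the floor, 10 were lower on the SPF array, and the sums were 9578 on the SPF array and 21611 on the germ-free array. The lymphocyte marker miR-150-5p had net intensities of 7552 on the SPF array and 18700 on the germ-free array, so the isolates held leukocyte RNA in both groups. miR-150-5p made up most of the lymphocyte sum on each array. The local background of its spot was 22.9% of the spot intensity on the SPF array and 115% on the germ-free array. Of 6 myeloid and pan-leukocyte probes, 4 were above the floor, 3 were lower and 1, miR-223-3p at 0.74, was higher, and the sums were 6283 on the SPF array and 9514 on the germ-free array. All 6 erythroid probes (miR-144, miR-451a and miR-486) were above the floor and lower on the SPF array, with a median of -0.46 and sums of 6466 on the SPF array and 8107 on the germ-free array. Without scaling the erythroid sums were 7614 and 8107. The probe for miR-486a-5p and miR-486b-5p was then higher on the SPF array, at 185 against 168. miR-144-5p was under the level of spots without a probe on both arrays, and miR-144-3p on the SPF array. The smooth muscle and the stromal and endothelial lists had medians of 0.16 and -0.03, with 4 of 6 and 3 of 6 probes higher. Their sums were 673 and 1303 on the SPF array and 579 and 1465 on the germ-free array. Without scaling, 17 of 18 epithelial and 4 of 11 lymphocyte probes were higher on the SPF array, with medians of 1.31 and -0.21. Without background subtraction the median of the epithelial probes was 0.35. With local background subtraction it was 0.26, with 9 of 15 probes higher. The lymphocyte median was then 0.29 over 8 probes, against -0.45 over 11 as reported. The myeloid median was 0.01 over 4 probes, against -0.69 over 4. Probes with local background above the spot intensity dropped out, so the epithelial and lymphocyte medians cover unlike sets. The lymphocyte probes lost were miR-150-5p, miR-181a-5p and miR-155-5p, at -1.31, -0.73 and -0.36 as reported. The epithelial probes lost were miR-192-5p, miR-194-5p and miR-429-3p, at 1.62, 1.36 and 1.57. The part of the marker differences between the arrays in the value of miR-21a-5p was not tested. In bulk RNA, fewer cells of a type and less RNA per cell cannot be told apart.

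**Figure D4:**
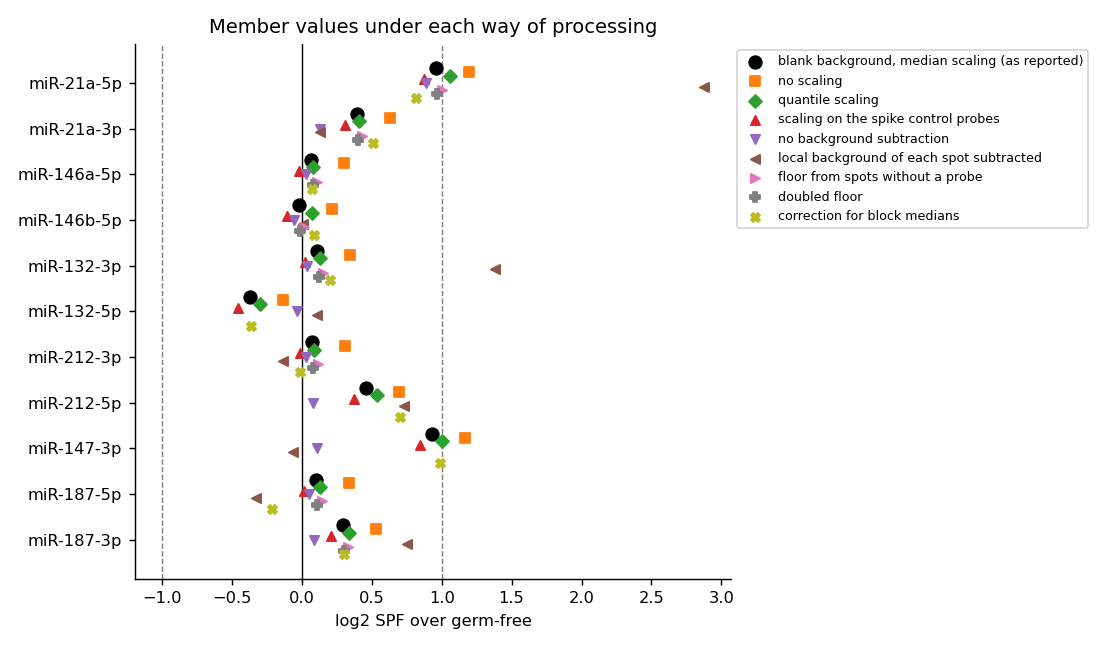
Log2 SPF over germ-free of the 11 members as reported (black circles) and under each alternative that gave a value; dashed lines mark 2-fold. miR-21a-5p stays above 0 under all 8 alternatives, from 0.82 to 2.88, and miR-21a-3p, miR-132-3p, miR-212-5p and miR-187-3p also stay above 0 wherever they have a value; the values of miR-146a-5p, miR-146b-5p, miR-132-5p, miR-212-3p, miR-147-3p and miR-187-5p lie on both sides of 0.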

How the data were processed

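The deposited values are median spot intensities and median local background intensities at 635 nm for 3200 spots on each of 2 arrays, scanned at 3 gains, per the file headers. RNA was labelled with Hy5, per the labels. Array platform, miRBase release and scanner software were not given in the sources used here. On each array the mean of the blank spots (895 on the SPF array, without 1 marked NG, and 896 on the germ-free array) was subtracted, and the arrays were scaled to equal medians over miRNAs above the floor on both. With 1 array per group no test was run, and that number limits the precision. The technical SD of a log2 value combined the log2 spread of 5 repeated control probes (8 spots each, net intensity over 200) with the blank SD of each array. The procedure was tested on simulated data with Python 3.11.15, numpy 2.4.6 and pandas 2.3.3. The simulation planted log2 shifts larger than any member value as reported. It was scored only at probes brighter than most members on the germ-free array. It therefore says nothing on small differences at dim probes. Groups came from the sample titles.

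All member probes are described. In the list of other responsive miRNAs the 3 highest, the 3 lowest and miR-155 are named. Members, lists and alternatives were chosen with earlier results of these data known. Probes named otherwise than by a listed name plus -5p or -3p were not matched. The alternatives were no scaling, quantile scaling, scaling on the spike controls, no background subtraction, local background, a floor from spots without a probe, a doubled floor, a fold threshold of 1.5 and the brighter arm of each precursor. Correction for block medians was added after seeing the data. Sequences are RefSeq's (GRCm38.p6) and gene positions are from RefSeq and GENCODE M21, matched by name, since the files hold none.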

Additional observations from a re-analysis of the deposited data

How the results depend on the processing

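The number of members at least 2-fold apart was 0 of 11 as reported. It became 2 of 11 without scaling and with quantile scaling (miR-21a-5p and miR-147-3p). With local background subtraction it was 2 of 10 (miR-21a-5p and miR-132-3p). With the floor taken from spots that hold no probe (the no-probe floor) it was 1 of 8 (miR-21a-5p). At a fold threshold of 1.5 it was 2 of 11. It was 0 under the other alternatives. The median of the members was 0.35 without scaling and between 0.02 and 0.20 under the other alternatives. The median of the other responsive miRNAs was -0.04 as reported and 0.19 without scaling, each over 26 probes. It was 0.11 over 21 probes with local background subtraction and 0.26 over 19 with the no-probe floor. These last 2 medians therefore cover fewer probes than the reported one. The number of shared miRNAs at least 2-fold apart was 44 of 1471 as reported, 48 of 1471 without scaling and 47 of 1471 with quantile scaling. It was 9 of 1471 without background subtraction, 148 of 1436 with local background subtraction and 23 of 1041 with the no-probe floor. With a doubled floor it was 29 of 1291, and at a fold threshold of 1.5 it was 180 of 1471. Of 81 recomputed single-member values, 64 moved by less than their technical SD and 17 by more. Of the 17, 6 were under local background subtraction. Without scaling, miR-21a-5p, miR-21a-3p, miR-146a-5p, miR-146b-5p, miR-132-3p, miR-212-3p and miR-187-5p moved by more. The rest were without background subtraction and with correction for block medians. The cause was not tested. No paired analysis was possible because each group had 1 array. Signal over background limits the values of miR-147-3p, miR-132-5p and miR-212-5p, which were under the level of spots without a probe on both arrays.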
